A study of Mus musculus with 12 samples.

Results

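The genes examined here encode 9 structural proteins of central nervous system myelin: Mbp, Mag, Mog, Mobp, Cnp, Cldn11, Opalin, Mal and Ermn. They were chosen by symbol, through the Ensembl identifiers of the count table, and each of the 9 matched 1 row among the 46078 genes of the table. All 9 passed the filter on low counts, which left 15866 genes for testing. Levels were measured by RNA sequencing of ventrolateral spinal cord white matter cut out by laser capture microdissection from C57Bl6 mice, in 12 libraries that each pooled tissue of 5 mice. There were 3 such pools in each of 4 groups: young naïve (6 weeks of age), middle-aged naïve (8 months), young injured and middle-aged injured. Injured tissue was taken 72 h after lysolecithin, a detergent-like lipid that strips myelin from axons, had been injected into the ventrolateral white matter, and naïve tissue had no lesion. No group carried a transgene or a drug treatment. The labels do not tie individual mice to values, so the error of every value is the spread between pools.

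Myelin is the multilayered membrane that oligodendrocytes wrap around axons. Its compact part is held together at its inner, cytoplasmic faces by small basic proteins, while adhesion molecules, junction proteins and cytoskeletal proteins serve the surfaces that meet the axon, the outside and the neighbouring loops. Mature oligodendrocytes transcribe these genes strongly and together, under factors that include Myrf and Sox10, and some of the messages, Mbp above all, are carried out into the sheath. In a lysolecithin lesion, oligodendrocytes are lost with their myelin, microglia and macrophages clear the debris, and progenitors later supply new oligodendrocytes.

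Upstream sequence was available for 8 of the 9 genes, as RefSeq windows running from 250 bases before the start to 50 bases after it. Mbp is not shown. The windows were searched on both strands for the words CTGGCAC and CTGGTAC (short forms of the Myrf site), ACAAAG (a Sox site) and CAGCTG (an E-box). Either Myrf word was found in the windows of 4 members, Mag, Mog, Cnp and Opalin, where 7.10% of 32851 mouse promoter windows held one. The Sox word was found in 4, Mag, Mobp (6 matches), Cnp and Opalin (18.7% of all windows), and the E-box in Opalin alone among the members (16.3% of all windows). Cldn11, Mal and Ermn held none of the words in this window. These matches are letters in a window, not sites shown to be bound. The stretches before the annotated gene are given 5′ to 3′ on the strand of the gene for 3 members with a Myrf word and for Cldn11, the member whose level fell least after injury. Capitals mark the matches, in either orientation, on GRCm38.p6.
Mag, minus strand of chr7:30914923-30915172: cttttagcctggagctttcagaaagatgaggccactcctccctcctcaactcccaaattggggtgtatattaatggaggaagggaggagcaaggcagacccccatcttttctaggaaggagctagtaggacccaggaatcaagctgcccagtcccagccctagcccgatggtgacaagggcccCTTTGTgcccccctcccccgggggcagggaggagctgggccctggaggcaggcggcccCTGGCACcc
Mog, minus strand of chr17:37023399-37023648: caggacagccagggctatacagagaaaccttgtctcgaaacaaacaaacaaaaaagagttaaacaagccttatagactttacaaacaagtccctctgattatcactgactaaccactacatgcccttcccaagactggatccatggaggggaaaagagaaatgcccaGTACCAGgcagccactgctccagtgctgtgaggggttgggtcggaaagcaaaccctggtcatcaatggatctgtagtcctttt
Cnp, plus strand of chr11:100574689-100574903: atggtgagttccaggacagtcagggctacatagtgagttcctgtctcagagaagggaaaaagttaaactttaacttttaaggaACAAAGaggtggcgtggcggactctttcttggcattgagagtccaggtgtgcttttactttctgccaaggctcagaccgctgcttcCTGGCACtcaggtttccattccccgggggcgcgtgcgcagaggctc
Cldn11, plus strand of chr3:31149670-31149919: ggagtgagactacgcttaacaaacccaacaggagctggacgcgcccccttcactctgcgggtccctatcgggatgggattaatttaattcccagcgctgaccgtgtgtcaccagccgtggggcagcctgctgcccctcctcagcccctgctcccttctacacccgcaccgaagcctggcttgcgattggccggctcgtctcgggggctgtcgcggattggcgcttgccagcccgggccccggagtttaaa

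The CTGGCAC word began 9 bases before the start in the Mag window and 81 bases before it in the Cnp window, and CTGGTAC lay in reverse complement 83 bases before the start of Mog. Mag has 3 listed starts, and the window shown belongs to the one farthest upstream.

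On the mouse assembly GRCm38, Mbp lies at chr18:82475146-82585637, Mobp at chr9:120149707-120181484, Cnp at chr11:100574904-100591729 and Cldn11 at chr3:31149920-31164324, all on the plus strand. On the minus strand are Mag at chr7:30899176-30914873, Mog at chr17:37010743-37023398, Opalin at chr19:41061710-41077113, Mal at chr2:127633226-127656695 and Ermn at chr2:58045113-58052864. The counts cover the exons of each gene, which add up to between 1704 bases for Mog and 8469 bases for Mbp. Few bases were shared with other genes: 154 exon bases of Cnp also belong to Dnajc7 and 237 of Ermn to Galnt5, both on the opposite strand, and 79 of Mobp belong to Gm38642. Whether the counting used strand is not given in the sources used here, so reads in those stretches cannot be assigned with certainty. Dnajc7 had 457 to 930 counts per library and Galnt5 262 to 1752.

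The libraries held 9834447 to 12807437 counts. At that depth 3 counts, the limit that a count of 0 allows, correspond to 0.234 to 0.305 CPM, the number of counts scaled to a library total of 1e6. Within groups, Pearson correlations of log2(CPM + 1) across genes ran from 0.981 to 0.997, and the closest libraries of a group differed by 7.48 times the chi-square per degree of freedom that sampling noise gives. The lowest member count in any library was 66, for Opalin.

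Together the 9 genes took 4.36% ± 0.252 (SD, n = 3) of all counts in young naïve pools and 3.08% ± 0.375 in middle-aged naïve pools. In injured tissue their share was 1.29% ± 0.0280 in young and 0.647% ± 0.153 in middle-aged mice. The highest share in an injured pool was 1.32% and the lowest in a naïve pool 2.69%. Mbp alone supplied 66.1% ± 2.94 of these counts in young naïve pools and 60.9% ± 2.99 in middle-aged injured pools.

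All 9 genes were lower in injured than in naïve tissue at both ages. In edgeR's quasi-likelihood test with Benjamini-Hochberg adjustment over all genes tested, 9 of 9 passed an adjusted p of 0.05 in young mice, where 26.3% of all genes tested were called lower, and 9 of 9 in middle-aged mice, where 29.3% were. The median of the 9 log2 fold changes was -2.01 in young and -2.29 in middle-aged mice, beside medians of 0.00064 and -0.03 over all genes. Every injured pool lay below every naïve pool of its age for each of the 9 genes, which was so in that direction for 32.2% of all genes in young and 29.7% in middle-aged mice. In bulk tissue, fewer oligodendrocytes and less of these RNAs per cell cannot be told apart. Levels below are CPM after TMM scaling of the library sizes, given for pools 1, 2 and 3 of a group in that order.

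Mbp and Mobp encode the small basic proteins of compact myelin, of which Mbp binds the cytoplasmic faces of the membrane together. The Mbp level was 31563, 29226 and 31186 CPM in young naïve and 24517, 19366 and 21369 CPM in middle-aged naïve pools. After injury it was 7723, 7571 and 7637 CPM in young and 3401, 3024 and 5105 CPM in middle-aged pools. The young injured pools lay within a narrow band, whereas pool 3 of the middle-aged injured group stood well above the other two. The log2 fold change of Mbp by injury was -2.004 ± 0.17 (SE) in young mice (adjusted p = 2.35e-07) and -2.50 ± 0.17 at the older age (adjusted p = 2.55e-08).

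Mobp showed the same order of groups, at 4185, 3878 and 4422 CPM in young naïve and 3982, 3156 and 3714 CPM in middle-aged naïve pools. The injured pools had 1181, 965 and 915 CPM in young and 578, 544 and 1022 CPM in middle-aged mice. Here too pool 3 of the middle-aged injured group was the highest of its group, and it lay inside the range of the young injured pools. Its log2 fold change by injury was -2.03 ± 0.21 (adjusted p = 1.40e-06) in young and -2.34 ± 0.21 (adjusted p = 3.23e-07) in middle-aged mice.

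Mag and Mog are members of the immunoglobulin superfamily that sit on opposite surfaces of the sheath, Mag on the innermost membrane facing the axon and Mog on the outermost. Mag stood at 813, 1093 and 1242 CPM in young naïve pools and 628, 919 and 837 CPM in middle-aged naïve pools. In injured tissue Mag was at 289, 432 and 381 CPM in young and 191, 210.2 and 185 CPM in middle-aged mice. Naïve pools of the ages overlapped, and injured pools did not. The log2 fold change by injury was -1.52 ± 0.19 (adjusted p = 8.07e-06) in young and -2.02 ± 0.19 (adjusted p = 4.69e-07) in middle-aged mice.

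For Mog the naïve pools had 880.4, 1087 and 1222 CPM in young and 587, 547 and 535 CPM in middle-aged mice. The injured pools had 154, 189.8 and 196 CPM in young and 94.4, 97.5 and 115 CPM in middle-aged mice. All 4 groups were separate, in the order young naïve, middle-aged naïve, young injured, middle-aged injured. The log2 fold change of Mog by injury was -2.56 ± 0.14 in young mice (adjusted p = 3.96e-09), and its change in middle-aged mice was -2.44 ± 0.14 (adjusted p = 5.38e-09).

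Cnp encodes a phosphodiesterase of the cytoplasmic channels of non-compact myelin. Its level was 4366, 4695 and 6001 CPM in young naïve and 2839, 2864 and 3116 CPM in middle-aged naïve pools. It was 961, 1090.1 and 1291 CPM in young injured and 583, 674 and 661 CPM in middle-aged injured pools. The groups did not overlap. The log2 fold changes by injury were close, at -2.17 ± 0.15 (adjusted p = 2.02e-08) in young and -2.20 ± 0.15 (adjusted p = 1.55e-08) in middle-aged mice.

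Cldn11 encodes claudin-11, which forms the tight junction strands between the membrane layers. Naïve pools had 1150.1, 1318 and 1478 CPM in young and 551, 551 and 571 CPM in middle-aged mice. Injured pools had 730.0, 873 and 1007 CPM in young and 334, 374 and 401 CPM in middle-aged mice. The young injured pools all lay above the middle-aged naïve pools, an order of groups that Cldn11 alone showed among the 9 genes. Its log2 fold change by injury, -0.60 ± 0.13 (adjusted p = 0.00148) in young and -0.59 ± 0.13 (adjusted p = 0.00143) in middle-aged mice, was the smallest in size among the members at both ages.

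Opalin, a transmembrane glycoprotein of oligodendrocytes, was the least abundant member. It had 93.4, 101 and 128 CPM in young naïve and 42.1, 50.8 and 52.3 CPM in middle-aged naïve pools. In injured pools it had 11.1, 19.1 and 14.9 CPM in young and 7.30, 5.26 and 6.73 CPM in middle-aged mice. No groups overlapped. Its log2 fold change by injury was the largest in size among the 9, at -2.84 ± 0.20 (adjusted p = 4.05e-08) in young and -2.91 ± 0.21 (adjusted p = 4.27e-08) in middle-aged mice.

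Mal encodes a proteolipid of lipid-rich membrane domains that takes part in sorting cargo to the myelin membrane. Mal was at 1392, 1928 and 1982 CPM in young naïve and 780.4, 799.6 and 751 CPM in middle-aged naïve pools. After injury the pools had 362, 500.2 and 450.4 CPM in young and 161, 134 and 219 CPM in middle-aged mice. The 4 groups were again separate. The log2 fold change by injury was -2.01 ± 0.19 (adjusted p = 5.02e-07) in young and -2.18 ± 0.19 (adjusted p = 2.14e-07) in middle-aged mice.

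Ermn encodes ermin, an actin-binding protein of the oligodendrocyte cytoskeleton. Young naïve pools had 1073, 1304 and 1388 CPM and middle-aged naïve pools 1341, 915 and 1087 CPM. Young injured pools had 328, 355 and 377 CPM and middle-aged injured pools 210.3, 174 and 301 CPM. The naïve pools of the ages overlapped: one middle-aged pool lay below the young range and the other two within it. The log2 fold change by injury was -1.83 ± 0.19 (adjusted p = 1.71e-06) in young and -2.29 ± 0.19 (adjusted p = 1.89e-07) in middle-aged mice.

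**Figure D1:**
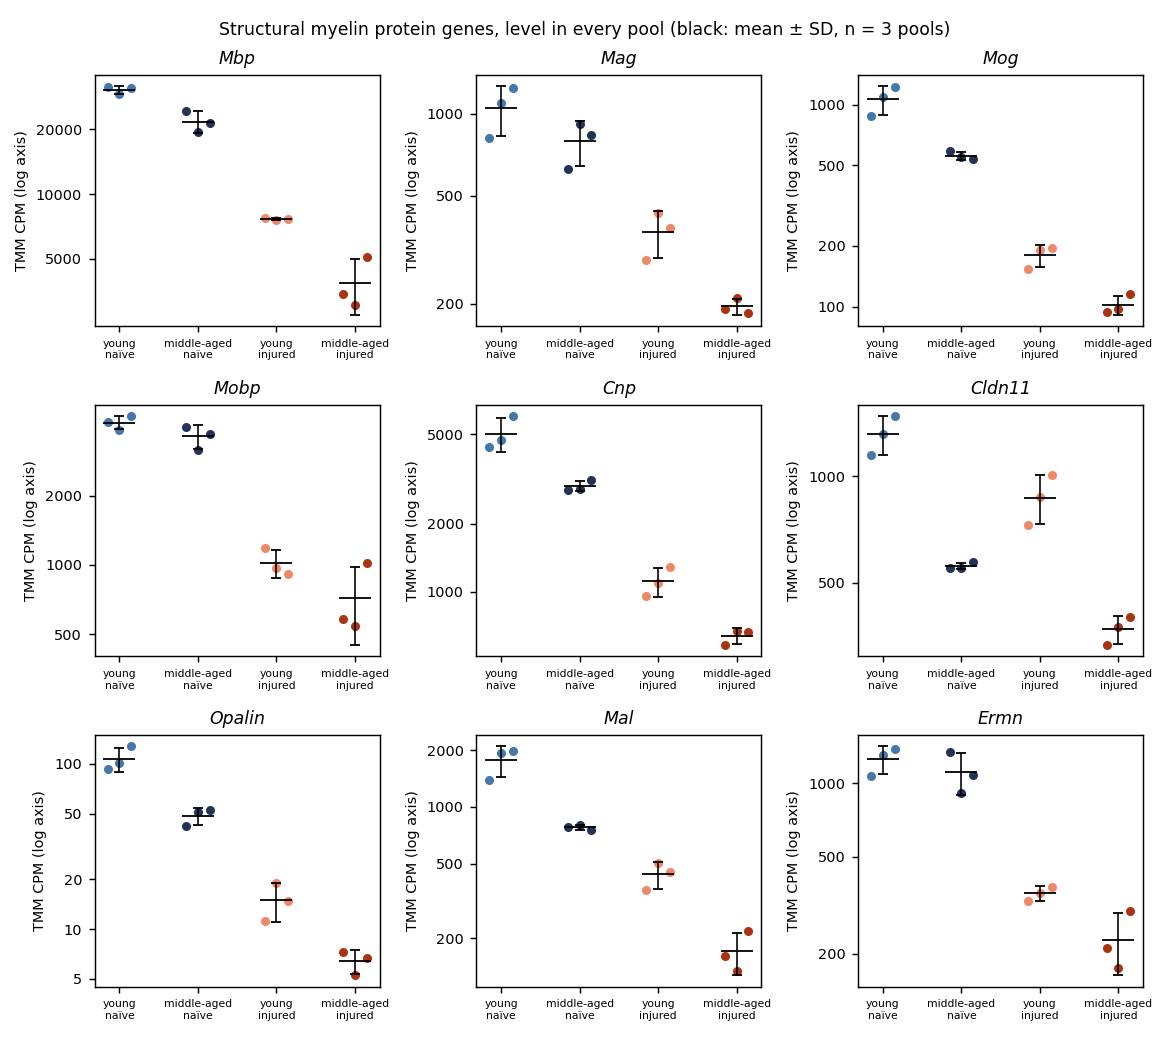
Level of each of the 9 genes in every pool, as TMM-scaled CPM on a log axis, with the mean and SD of the 3 pools of each group in black. Injured pools sit below the naïve pools of the same age in every panel, and in the Cldn11 panel the young injured pools, at 730.0, 873 and 1007 CPM, sit above the middle-aged naïve pools.

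The next question was whether the levels differed by age. In naïve tissue 5 of the 9 genes were lower in middle-aged than in young mice and none was higher, where 1.78% of all genes tested were called lower. These were Cldn11 (-1.24 ± 0.13, adjusted p = 2.64e-04), Mal (-1.19 ± 0.18, adjusted p = 0.00284), Opalin (-1.15 ± 0.19, adjusted p = 0.0045), Mog (-0.93 ± 0.14, adjusted p = 0.00211) and Cnp (-0.77 ± 0.14, adjusted p = 0.00729), as log2 fold changes of middle-aged against young. The mean level of Cldn11 in middle-aged naïve pools was 42.4% of that in young naïve pools, and that of Mal 44.0%. Pools of the ages were separate for these 5 and for Mbp, with the middle-aged pools lower, as for 9.34% of all genes tested. Mbp had -0.50 ± 0.17 but an adjusted p of 0.12. Mag (-0.40 ± 0.18, adjusted p = 0.256), Mobp (-0.20 ± 0.20, adjusted p = 0.63) and Ermn (-0.17 ± 0.18, adjusted p = 0.663) overlapped between the ages. The median of the 9 log2 fold changes was -0.77, beside 0.01 over all genes. The call for Cnp was lost when only the naïve pools were fitted (adjusted p = 0.0814).

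In injured tissue 7 of the 9 were lower in middle-aged mice and none was higher, where 0.908% of all genes tested were called lower. The log2 fold changes were -1.35 ± 0.18 for Mal (adjusted p = 0.0039), -1.24 ± 0.13 for Cldn11 (adjusted p = 0.00133), -1.23 ± 0.21 for Opalin (adjusted p = 0.0107) and -0.99 ± 0.17 for Mbp (adjusted p = 0.00922). Mag (-0.91 ± 0.18), Mog (-0.82 ± 0.14) and Cnp (-0.80 ± 0.14) also passed, at adjusted p values of 0.027, 0.00981 and 0.0117. Ermn (-0.63 ± 0.19, adjusted p = 0.149) and Mobp (-0.51 ± 0.20, adjusted p = 0.351) did not. Pools of the ages were separate for every member but Mobp, with the middle-aged pools lower, as for 12.2% of all genes tested. The median of the 9 log2 fold changes was -0.91, beside 0.0020 over all genes. This count rested on single pools: it was 3 of 9 without young injured pool 2, 2 of 9 without young injured pool 3, 3 of 9 without middle-aged injured pool 1, 2 of 9 without middle-aged injured pool 2 and 8 of 9 without middle-aged injured pool 3. Over all 22 other fits, Cldn11 kept an adjusted p of at most 0.0161 and Mal of at most 0.0276.

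Whether injury changed the genes by a different amount at the 2 ages was tested as an interaction. None of the 9 passed in edgeR or in DESeq2, and none had an unadjusted p below 0.05 in edgeR, where 0.139% of all genes tested passed after adjustment and 1575 genes had an unadjusted p below 0.05. The difference of the log2 fold changes by injury, middle-aged minus young, was -0.51 ± 0.26 for Mag (adjusted p = 0.55), -0.50 ± 0.23 for Mbp (adjusted p = 0.506) and -0.46 ± 0.26 for Ermn (adjusted p = 0.62), by edgeR. For Mobp the difference was -0.31 ± 0.28, for Mal -0.17 ± 0.25 and for Opalin -0.08 ± 0.28. Those of Cnp (-0.03 ± 0.20), Mog (0.12 ± 0.19) and Cldn11 (0.00 ± 0.19) were smaller than their errors. The same numbers are the difference of the age effect between injured and naïve tissue, so the counts of 5 and 7 above do not show that the age effect differed between naïve and injured tissue.

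**Figure D2:**
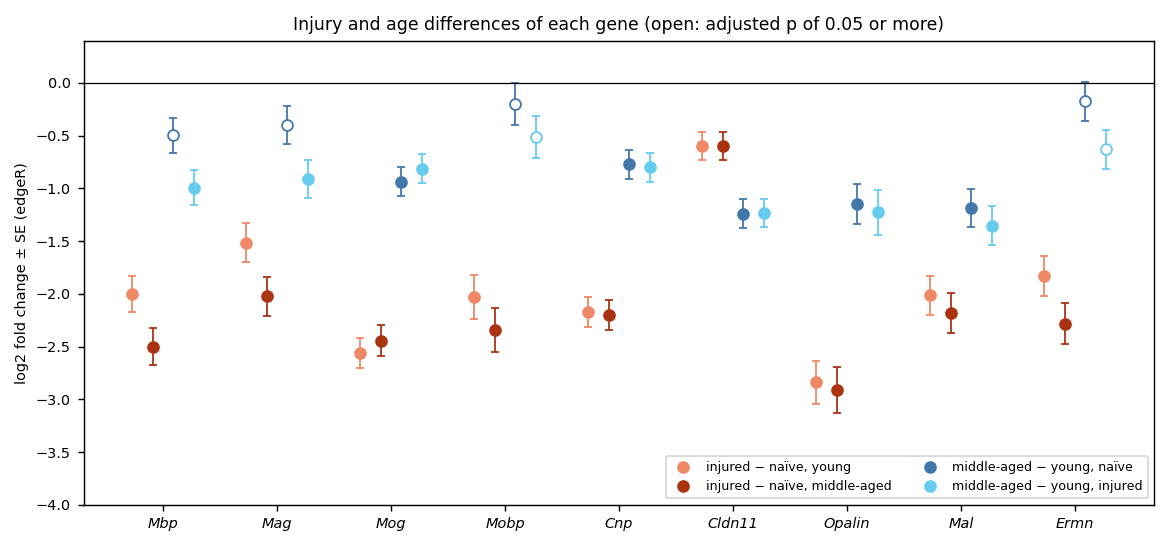
Log2 fold change with its SE for each gene in 4 comparisons, from 1 edgeR fit over 12 pools, with open circles where the adjusted p was 0.05 or more. The injury changes lie between -2.91 and -1.52 except for Cldn11, at -0.60 and -0.59, whose age differences, -1.24 and -1.24, are the larger ones.

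To compare the members with one another, each was counted against Mbp in the same pool, which removes the library total from the comparison. Cldn11 stood apart. It had 3.64, 4.51 and 4.74 counts per 100 Mbp counts in young naïve pools and 2.25, 2.84 and 2.67 in middle-aged naïve pools. In injured pools it had 9.45, 11.5 and 13.2 in young and 9.81, 12.4 and 7.85 in middle-aged mice. Every injured pool lay above every naïve pool of either age. With Mbp counts in place of library sizes in edgeR, the log2 change of this ratio by injury was 1.41 ± 0.22 (adjusted p = 5.36e-06) in young and 1.95 ± 0.22 (adjusted p = 5.26e-08) in middle-aged mice. Since Mbp itself fell, 86.7% of all genes tested changed relative to Mbp in young and 90.5% in middle-aged mice, and a call on this scale says only that a gene and Mbp did not fall alike.

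In young mice 3 of the other 8 members changed relative to Mbp with injury: Cldn11 rose, and Mog (-0.56 ± 0.21, adjusted p = 0.0177) and Opalin (-0.83 ± 0.28, adjusted p = 0.00834) fell further than Mbp did. With most genes called on this scale, the adjustment raised p only a little, from 0.0147 for Mog and 0.0067 for Opalin in edgeR. Neither Mog nor Opalin was called without young injured pool 1, and Mog was not called without young naïve pool 2 or young naïve pool 3. Mag had 0.49 ± 0.27 (adjusted p = 0.0947). Mobp (-0.02 ± 0.19), Mal (-0.01 ± 0.21), Cnp (-0.17 ± 0.22) and Ermn (0.17 ± 0.19) were not called, and their values were at or under their errors. In middle-aged mice Cldn11 was called alone among the 8, with Mag at 0.53 ± 0.27 (adjusted p = 0.0691), Opalin at -0.39 ± 0.28 and Mog at 0.10 ± 0.21. Mag was also called without middle-aged naïve pool 2, and both Mag and Cnp without middle-aged injured pool 3. The interaction of injury and age on this scale was called for 0 of the 8, with Mog at 0.66 ± 0.30 (adjusted p = 0.239) and Opalin at 0.44 ± 0.40 (adjusted p = 0.493). The calls for Mog and Opalin in young mice alone therefore do not show a difference between the ages. Set against each of the other members in turn, the ratio of Cldn11 changed by 0.92 ± 0.23 (against Mag) to 2.28 ± 0.28 (against Opalin) in young mice, and by 1.40 ± 0.23 (against Mag) to 2.34 ± 0.28 (against Opalin) in middle-aged mice.

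The composition was also compared by age. In naïve tissue Cldn11 (-0.73 ± 0.22, adjusted p = 0.0312) and Mal (-0.68 ± 0.21, adjusted p = 0.0369) were lower relative to Mbp in middle-aged mice, where 15.8% of all genes tested changed on this scale. Mal had 4.41, 6.60 and 6.36 counts per 100 Mbp counts in young naïve and 3.18, 4.13 and 3.51 in middle-aged naïve pools, so the groups were separate. Mobp and Ermn lay on the other side, with 13.3, 13.3 and 14.2 against 16.2, 16.3 and 17.4 for Mobp and 3.40, 4.46 and 4.45 against 5.47, 4.72 and 5.09 for Ermn. Neither was called there (0.29 ± 0.19, adjusted p = 0.235, and 0.31 ± 0.19, adjusted p = 0.222). In injured tissue Mobp was higher relative to Mbp in middle-aged mice (0.46 ± 0.19, adjusted p = 0.0318), alone among the 8, where 75.9% of all genes tested changed. That call depended on the reference: with Mobp counts in place of library sizes in edgeR, Mbp had -0.47 ± 0.24 (adjusted p = 0.15). The ratios by age were not refitted with a pool left out.

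**Figure D3:**
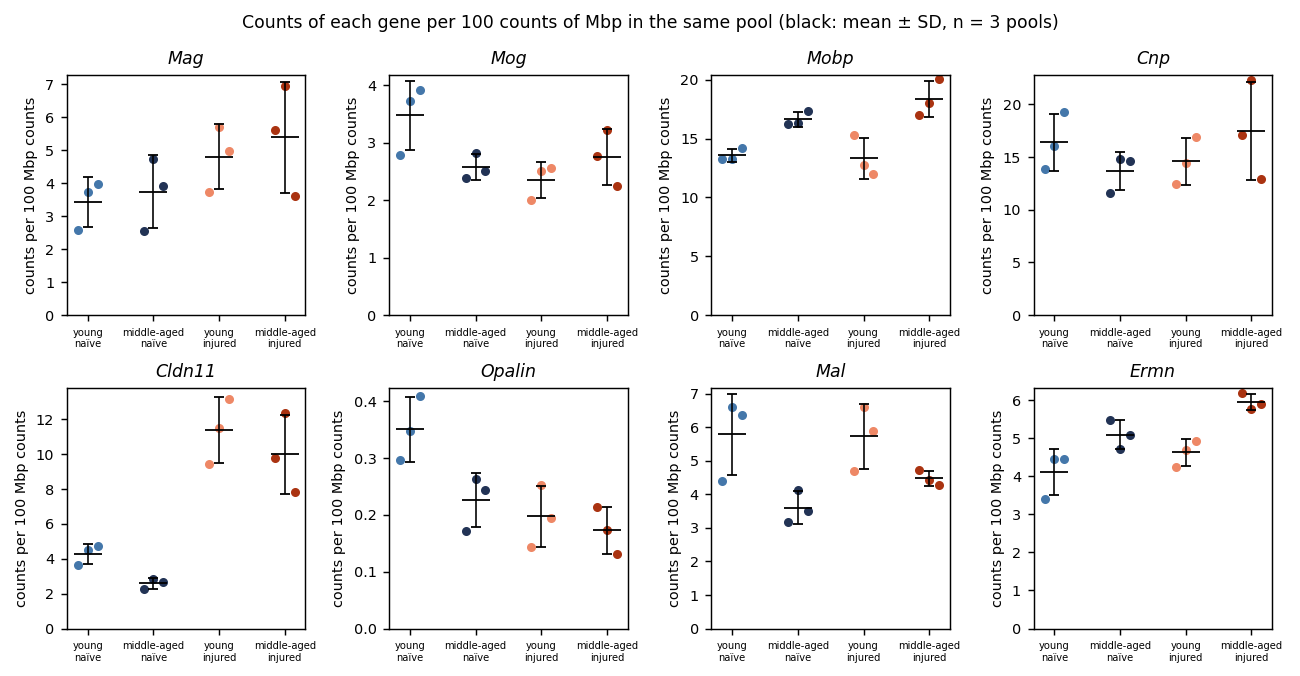
Counts of each of the other 8 genes per 100 counts of Mbp in the same pool, on linear axes that start at 0, with the mean and SD of 3 pools in black. Cldn11 runs from 2.25, 2.84 and 2.67 in middle-aged naïve pools to 9.45, 11.5 and 13.2 in young injured pools, while the panels of Mobp, Cnp and Mal stay within a narrower relative range.

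Levels between genes were compared per kilobase of merged exon. Mbp was first in every group, at 3620.1 ± 148 CPM per kb (SD, n = 3) in young naïve pools and 454 ± 131 CPM per kb in middle-aged injured pools. In naïve tissue Cnp followed, with 1379.7 ± 238 CPM per kb in young and 808 ± 42.1 in middle-aged mice, apart from its neighbours at both ages. Young naïve pools could not be ordered among Cldn11 (703 ± 87.8), Mal (636 ± 117), Mog (624 ± 101) and Mobp (608 ± 39.8), each of which overlapped the next. After injury Cldn11 moved to the second place, at 465 ± 74.0 CPM per kb in young pools, above Cnp at 306 ± 45.7, without overlap. In middle-aged injured pools the levels of Cldn11 (197 ± 18.1 CPM per kb) and Cnp (176 ± 13.6) overlapped. Opalin was last in all 4 groups, apart from the others, at 36.5 ± 6.10 CPM per kb in young naïve and 2.18 ± 0.356 in middle-aged injured pools. Mag had the eighth mean in each group, but its pools overlapped those of Ermn in every group except middle-aged naïve. Gene lengths merge all annotated isoforms, so genes with long unused exons, such as Mbp with 16 annotated transcripts, may stand lower than their main isoforms would.

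Within groups the members did not vary as 1 unit. After each group's mean was taken away, the 36 pairs of genes had Pearson correlations of log2 CPM over the 12 pools between -0.41 and 0.93, with a median of 0.49, and 5 were negative. These pools share their library and scaling, so the values are a description. Mbp went with Mobp (r = 0.93) and Ermn (r = 0.85), and Cnp with Cldn11 (r = 0.93), which also went with Mog (r = 0.89). Mbp and Mobp had values between -0.02 (Mobp with Cnp) and 0.39 (Mbp with Mog) with Cnp, Cldn11 and Mog, whereas Ermn also went with Mog (r = 0.72) and Mal (r = 0.76). Mag was negatively correlated with both Mbp (r = -0.40) and Mobp (r = -0.41). Pool 3 of the middle-aged injured group, where 8 of 9 genes lay above their group mean, deviated by 0.24 on the log2 scale on average, the largest mean deviation among the 12 pools. Pool 3 of the young naïve group had all 9 genes above their mean, by 0.18 on average.

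**Figure D4:**
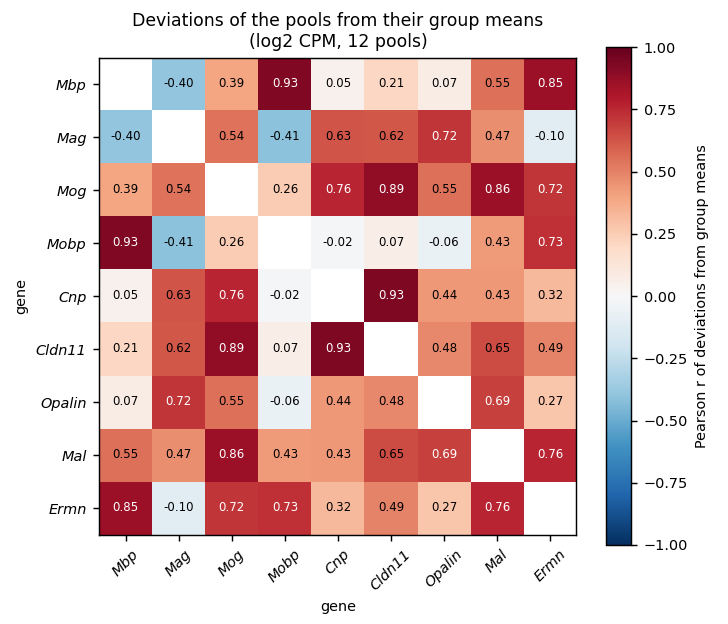
Pearson correlation between genes of the deviations of the 12 pools from their group means in log2 CPM, with red for positive and blue for negative values. Mbp with Mobp and Cnp with Cldn11 both reach 0.93, while Mag with Mobp is at -0.41.

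Among 13075 genes outside the set with a mean log2 CPM of at least 1, those whose log2 CPM over the 12 pools was most like the mean of the members included Tspan2 (r = 0.994), Clgn (r = 0.993), Ptpdc1 (r = 0.992) and Sgk2 (r = 0.992). The 12 pools fall into a naïve and an injured set, which such a correlation follows.

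Other genes of the sheath and the lineage set these changes in context. Called lower with injury were 26.3% of all genes tested in young and 29.3% in middle-aged mice. With age the shares called lower were 1.78% in naïve and 0.908% in injured tissue. Of 17 further myelin sheath protein genes, 16 fell with injury in young mice and 1 rose, with a median log2 fold change of -1.67, and 16 fell and 1 rose in middle-aged mice (-1.57). The one that rose was Cd9, a tetraspanin also found on myeloid cells, at 2.46 ± 0.11 (adjusted p = 2.91e-10) in young and 2.74 ± 0.11 (adjusted p = 1.47e-10) in middle-aged mice, where 28.3% and 29.2% of all genes tested were called higher. With age in naïve tissue 5 of the 17 were lower (-0.39), and in injured tissue 3 were (-0.48). Of 13 other genes of mature oligodendrocytes, 12 fell with injury at each age (median -1.98 in young), from Aspa, an enzyme of N-acetylaspartate breakdown (-2.42 ± 0.23, adjusted p = 5.69e-07), to Trf, the iron carrier transferrin, which was not called (-0.01 ± 0.18, adjusted p = 0.974). In naïve tissue 4 of these 13 were lower with age, and their median was -0.09. In injured tissue 5 of the 13 were lower with age (median -0.59).

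Of 8 transcription factors of the lineage, 6 were lower with injury in young mice (median -0.96) and 7 in middle-aged mice (-1.20). Of all genes tested 26.3% and 29.3% were called lower. The 8 factors ranged in young mice from St18 (-2.07 ± 0.34, adjusted p = 1.32e-04) to Zfp488, not called at 0.45 ± 0.28 (adjusted p = 0.19). Myrf and Sox10, named after their values were seen because their words had been searched for above, had -1.09 ± 0.18 (adjusted p = 1.19e-04) and -1.08 ± 0.21 (adjusted p = 5.22e-04). None of the 8 was called with age in naïve tissue, where their median was -0.08 and Myrf stood at 0.00 ± 0.17. Of 6 progenitor markers none fell and 3 rose with injury at each age, led in young mice by Cspg4, the NG2 proteoglycan (1.99 ± 0.24, adjusted p = 6.86e-06), while Gpr17, a receptor of committed precursors, had 0.16 ± 0.36 (adjusted p = 0.734). The shares of all genes tested that were called higher were 28.3% in young and 29.2% in middle-aged mice. Gpr17 was lower with age in naïve (-1.76 ± 0.38, adjusted p = 0.0195) and injured tissue (-2.22 ± 0.38, adjusted p = 0.0102). It had the lowest value of the 6 in both. In naïve tissue 1 of the 6 was called lower with age (median -0.36), where 1.78% of all genes were. In injured tissue 2 of the 6 were (median -0.65), where 0.908% of all genes were.

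Markers of other cells moved with the same comparisons. With injury 26.3% of all genes tested were called lower and 28.3% higher in young mice, and 29.3% and 29.2% in middle-aged mice. All 6 myeloid markers rose with injury at both ages, from Csf1r (2.08 ± 0.18, adjusted p = 3.10e-07) to Cd68 (6.90 ± 0.34, adjusted p = 1.08e-09) in young mice. Their summed level was 71.7 to 102 CPM in young naïve and 1371 to 1392 CPM in young injured pools, and 109.6 to 147 and 1459 to 1947 CPM in middle-aged mice, and none of the 6 was at 0 in any pool. In naïve tissue 4 of the 6 were higher with age (median 1.14), where 2.02% of all genes tested were called higher. In injured tissue none of the 6 was called with age (median 0.34), where 0.24% of all genes tested were called higher. Of 6 astrocyte markers 5 fell with injury at each age, with summed levels of 10644 to 12270.5 CPM in young naïve and 4973 to 5784 CPM in young injured pools. Of 6 neuron markers 4 fell in young mice, and 3 fell and 1 rose in middle-aged mice. Their summed level ranged widely in young naïve pools, from 767 to 2151 CPM. Among 4 endothelial markers 2 rose in young mice, and 2 rose and 1 fell in middle-aged mice. In middle-aged mice the neuron marker that rose was Slc17a6, a vesicular glutamate transporter (1.52 ± 0.45, adjusted p = 0.00918), and the endothelial marker that fell was Flt1, a receptor of vascular growth factors (-0.47 ± 0.13, adjusted p = 0.00594), both named after their values were seen. The part of these cells in the fall of the members was not tested.

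Among markers of peripheral myelin, which spinal roots could bring into a capture, only 3 of 6 passed the filter. With injury 1 of the 3 was called lower and 1 higher in young mice, and 1 lower and 0 higher in middle-aged mice. Of all genes tested 26.3% and 28.3% were called lower and higher in young mice, and 29.3% and 29.2% in middle-aged mice. The summed level of the 6 was 75.8 to 80.3 CPM in young naïve and 28.9 to 74.0 CPM in young injured pools. In middle-aged mice it was 91.7 to 106 CPM in naïve and 33.3 to 43.4 CPM in injured pools. Prx, which encodes periaxin of Schwann cells, had 2, 1, 2 counts in the young naïve pools, 1, 1, 11 in the middle-aged naïve, 34, 8, 5 in the young injured and 9, 7, 7 in the middle-aged injured pools. Pmp2 had at most 1 count in any pool. Mbp, Mag and Mal are also made by Schwann cells. The pool with 34 Prx counts, young injured pool 1, had the highest Mbp level of its group (7723 CPM beside 7571 and 7637) and the lowest levels of Mag (289 beside 432 and 381 CPM) and Mal (362 beside 500.2 and 450.4 CPM). The part of Schwann cells in these levels was not tested. Prx and Pmp2 were named after their values were seen.

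**Figure D5:**
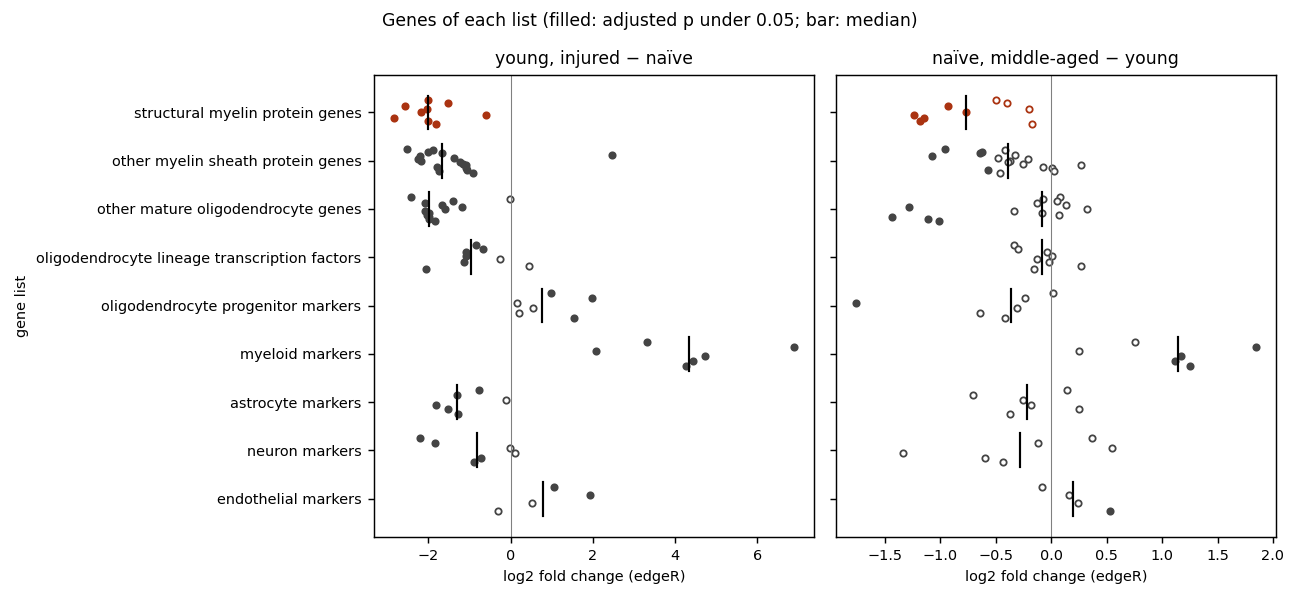
Log2 fold change of every tested gene in 9 lists for injury in young mice and for age in naïve mice, with filled circles for an adjusted p under 0.05 and a bar at the median of each list. Peripheral myelin markers, of which 3 of 6 were tested, are not drawn. The median of the structural myelin protein genes, in red, lies at -2.01 for injury and -0.77 for age, beside -1.67 and -0.39 for the other sheath protein genes.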

How the data were processed

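Spinal cord white matter RNA of 12 pools was sequenced on an Illumina NextSeq500 after amplification with the REPLI-g protocol. Per the labels and the study's methods, the authors checked reads with FastQC 0.11.4, mapped them to GRCm38 (Ensembl) using TopHat 2.0.10 (aligner Bowtie 1.1.2), and deposited raw read counts per gene from featureCounts. The annotation release, the strand setting and the treatment of reads shared between genes are not given in the sources used here. Amplification without molecular identifiers means that counts are not independent molecules, and the limit of 3 counts covers counting error only.

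Groups were taken from the sample labels and the ages from the study's methods. Counts were scaled by TMM, filtered with filterByExpr to 15866 of 46078 genes and fitted in R 4.3.3 with edgeR 4.0.16 (quasi-likelihood F test, all 12 pools, 1 coefficient per group, Benjamini-Hochberg adjustment, threshold 0.05). Each standard error was computed as the size of the log2 fold change over the root of its F statistic. The study itself used pairwise DESeq2, which was run as an alternative (version 1.42.0). For ratios, Mbp counts replaced the library sizes. The fit was tested on simulated data. Each p-value sets a group difference against the spread between pools, estimated over the groups fitted with information shared across genes.

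Exon lengths and gene positions came from GENCODE vM21, gene symbols from a separate list of gene names by Ensembl identifier, and promoter sequences from RefSeq (GRCm38.p6). The members and the gene lists were chosen with earlier results of these data known. Named genes are all 9 members, the genes with the lowest and highest log2 fold change by injury in young mice in each list (neuron, astrocyte and endothelial markers are given as counts), and the 5 most like the members. Genes named outside this rule are marked as such. Some genes that the rule names, and ratios to one of them, are not reported here.

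Pool numbers recur between groups. Deviations of same-numbered pools from their group means correlated between -0.11 and 0.15 in 12 pairs, and 2 pairs were over 0.1, so the numbers were not taken to pair the pools.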

Additional observations from a re-analysis of the deposited data

How the results depend on the processing

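Every one of the 9 genes stayed lower with injury, past the threshold, at both ages in all 22 alternatives, and no member passed the interaction test in any of the 21 run for it. Leaving out 1 pool at a time gave 5 to 6 members lower with age in naïve tissue and 2 to 8 in injured tissue, and 1 to 3 members changed relative to Mbp at either age. With each of the 8 other members in place of Mbp as the reference, added after the data were examined, 2 to 8 of the other genes changed with injury in young and 1 to 8 in middle-aged mice. The counts were 8 in both cases with Cldn11 as the reference, 7 and 5 with Opalin, and 7 and 2 with Mog. The share of all genes called was not computed for these references, so the counts are a description only. With the replicate block 2 members changed relative to Mbp in middle-aged mice, Cldn11 and Mag, and the counts of members called in every other comparison were those without the block (9, 9, 5, 7, 0 and 3). Counts over all genes were less stable: 603 by age in naïve tissue became 1114 with DESeq2, 1153 without the filter, 71 with only the naïve pools and 261 to 799 with 1 pool left out. By age in injured tissue 182 became 450, 437, 821 and 45 to 410, and for the interaction 22 became 238 and 329 with the first 2 of these, 35 with totals free of mitochondrial genes and 3 to 56 with 1 pool left out. Library totals raised the median of all genes by 0.20 for injury in young mice (3236 of 8613 calls lower, against 4175 of 8658), where the members' median became -1.82, and totals free of mitochondrial genes left 185 of 625 calls lower by age in naïve tissue, against 282 of 603. Offsets for GC content and transcript length, added after the data were examined, gave 9, 9, 5 and 8 members in the 4 comparisons and 0 for the interaction. Causes of these shifts were not tested.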

Other observations

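The 5 genes whose levels were most like the mean of the myelin genes were picked over the same pools that were tested. Changes like those of the myelin genes were therefore largely part of the choice. The adjusted p-values given for them do not allow for this choice, so they are a description only. Among these genes was Tspan2, a tetraspanin of myelinating cells. By edgeR, Tspan2 had log2 fold changes by injury of -2.20 ± 0.17 (adjusted p = 7.08e-08) in young and -2.23 ± 0.17 (adjusted p = 5.39e-08) in middle-aged mice. With age it had -1.07 ± 0.16 in naïve tissue (adjusted p = 0.00239) and -1.10 ± 0.16 in injured tissue (adjusted p = 0.00468). Clgn, a chaperone of the endoplasmic reticulum, fell with injury by 2.41 and 2.31 on the log2 scale at the 2 ages, and was lower with age in naïve (-0.82 ± 0.14, adjusted p = 0.00521) and injured tissue (-0.72 ± 0.14, adjusted p = 0.0262). Ptpdc1, a phosphatase, had -1.74 ± 0.16 and -1.80 ± 0.16 by injury in young and middle-aged mice and was not called with age (adjusted p = 0.0678 and 0.103). Sgk2, a serine/threonine kinase, had -2.29 ± 0.24 and -2.99 ± 0.25 by injury, and with age it was called in injured (-1.31 ± 0.25, adjusted p = 0.0236) and not in naïve tissue (-0.61 ± 0.22, adjusted p = 0.158), a difference that did not pass the interaction test (adjusted p = 0.522). Gja1, the connexin of astrocytes, came eighth in the same order (r = 0.992), named after its rank was seen.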
